A study of Fragaria vesca with 12 samples.

Results

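Cold storage in air was compared with harvest in ripe strawberries of the cultivar Mara des Bois, labelled as Fragaria vesca, using 6 of the 12 RNA sequencing libraries of the study. The harvest group (AH) held 3 libraries from ripe fruit sampled 2 hours after picking. The air-cold stored group (ACS) held 3 libraries from ripe fruit that spent 7 days in air at 1 °C followed by 1 day at 20 °C, so the stored fruit was sampled after rewarming and not in the cold. The other groups were used only beside single genes. Fruit without cold storage (NCS) was held for 2 days at 20 °C. CO2-cold stored fruit (CCS) spent the first 2 of its 7 cold days under 18% CO2, the other 5 in air, and the same day at 20 °C. Every library was made from pooled fruit of 1 cultivar, and the air-stored fruit came from a single container, so the p-values below measure the spread between libraries. Cold, rewarming and the days since picking all separate ACS from AH and cannot be told apart in this comparison alone.

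All 34008 genes of the table entered, of which 16672 reached 0.5 RPKM (a read count divided by gene length in kilobases and by library size) in at least 3 of the 6 libraries and were tested. Genes are given by their FvH4 identifiers and by the Rosaceae description in the file, and 47 functional groups were built from words in those descriptions. A second annotation in the file is cited for some genes only. It labels several other named genes as an RNA polymerase subunit, among them ACC synthase 1 FvH4_7g15310 and SAG101 FvH4_6g50162. It therefore does not settle what a gene encodes. A gene was called when the limma adjusted p was at most 0.05 and the log2 fold change of ACS over AH was at least 1.5 in size, on the scale of log2(RPKM + 0.1), which understates the change of low genes.

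Strawberry is a fruit that ripens without the burst of respiration and ethylene seen in tomato, and it softens as enzymes loosen the pectin and xyloglucan of its cell walls. Chilled plant tissue is known to respond through calcium influx, reactive oxygen and the hormones ethylene, jasmonate and abscisic acid, and it can build up protective sugars of the raffinose family and chaperone proteins. Enzymes that oxidize phenolic compounds in the wall, such as peroxidases and laccases, stiffen walls and form lignin.

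Cold-stored fruit differed from harvest fruit in 1426 genes, or 8.55% of those tested, with 1192 higher (7.15%) and 234 lower (1.40%). The rises were also the larger changes: 367 genes rose by a log2 fold change of 3 or more and 43 by 5 or more, while 16 fell by 3 or more and 1 by 5 or more. The median log2 fold change over all tested genes was 0.01. The groups did not overlap in 1424 of the called genes, beside 55.0% of all tested genes (27.4% higher and 27.6% lower). The largest rises and falls named below, in all and per group, were picked among these 1424. Their lack of overlap was thus fixed by the choice. Without the limit on fold change the balance was nearly even, with 3648 genes higher (21.9%) and 3483 lower (20.9%) at an adjusted p of 0.05 or less.

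**Figure D1:**
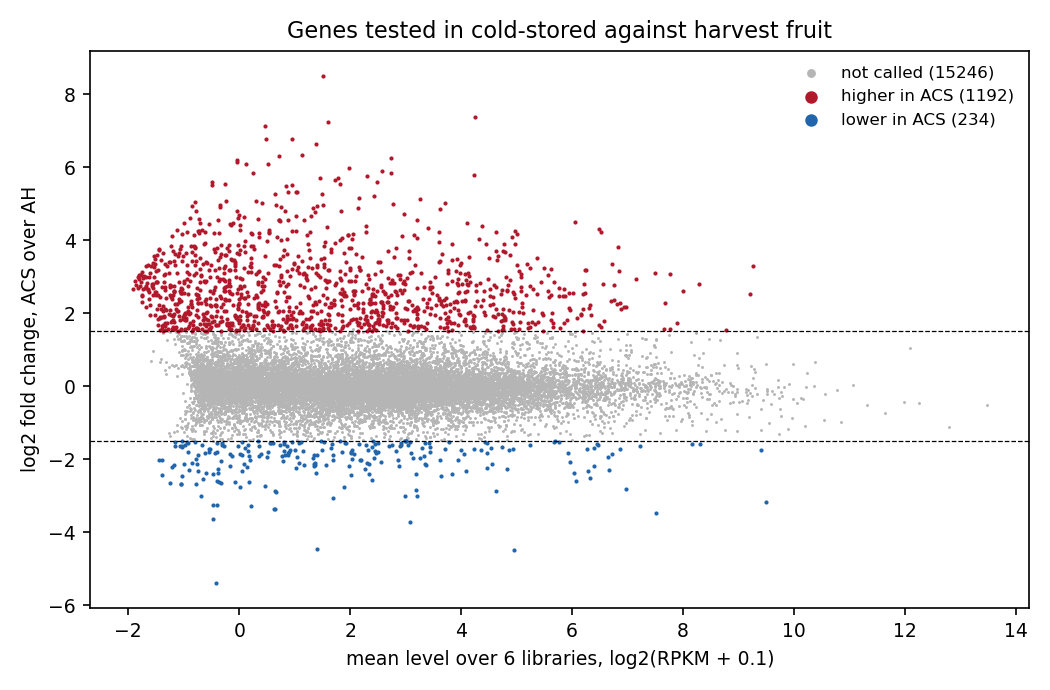
Mean level over the 6 libraries (x axis, log2(RPKM + 0.1)) against the log2 fold change of ACS over AH (y axis) for the 16672 tested genes, with the limit of 1.5 dashed. The 1192 genes called higher (red) reach further from 0 than the 234 called lower (blue).

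Library size in these groups ran from 68100000 to 119900000 reads (rounded), and 95.8% to 96.3% of reads lay on genes. Harvest libraries varied more among themselves than stored ones, with a median SD of 0.17 against 0.08 on the log2 scale. Flavonoid genes, which mark the red receptacle, summed to 3755 to 4912 RPKM in AH and 4217 to 4403 RPKM in ACS, in overlapping ranges. The seed storage, cupin and oil body list, which marks the achenes, summed to 4752, 5374 and 9089 RPKM in AH and to 9249, 4739 and 4657 RPKM in ACS. It was thus high in AH replicate 3 and ACS replicate 1, with 1 of its 35 tested members called (2 higher without AH replicate 1, ACS replicate 2 or ACS replicate 3, and 1 lower without AH replicate 2 or ACS replicate 1), and its part in the results was not tested. In bulk fruit, fewer cells of a type and less RNA per cell cannot be told apart.

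The group with the largest share of members called higher was the secretory peroxidases, followed by chitinases and other pathogenesis-related proteins, WRKY factors, xyloglucan endotransglucosylases, glutathione S-transferases, jasmonate genes, ethylene genes, laccases with dirigent proteins, and calcium sensors. In each of these at least 24.3% of tested members were called higher. A gene that reached 0.5 RPKM in the stored libraries alone passed the filter and could only be a rise, here as over all genes. Small heat shock proteins and photosystem genes held only falls among their called members. Xyloglucan endotransglucosylases, pectin methylesterases, expansins and the gibberellin and cytokinin list each held rises and falls. No member was called among the histones, the sugar transporters, the trehalose genes, the circadian clock genes, or the ascorbate, catalase and superoxide enzymes. Of the 99 tested genes in these 5 lists limma gave 46 an unadjusted p below 0.05, beside 8325 of all 16672 tested genes. For these 99 genes voom on the recovered reads also called 0. With a pseudocount of 1 RPKM in place of 0.1, the genes higher fell to 7 among the peroxidases, 9 among the pathogenesis-related proteins and 10 among the WRKY factors, and without AH replicate 1 the sugar transporters held 1 fall. Without the filter on low values the ascorbate list held 1 fall and the small heat shock proteins 2 rises.

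**Figure D2:**
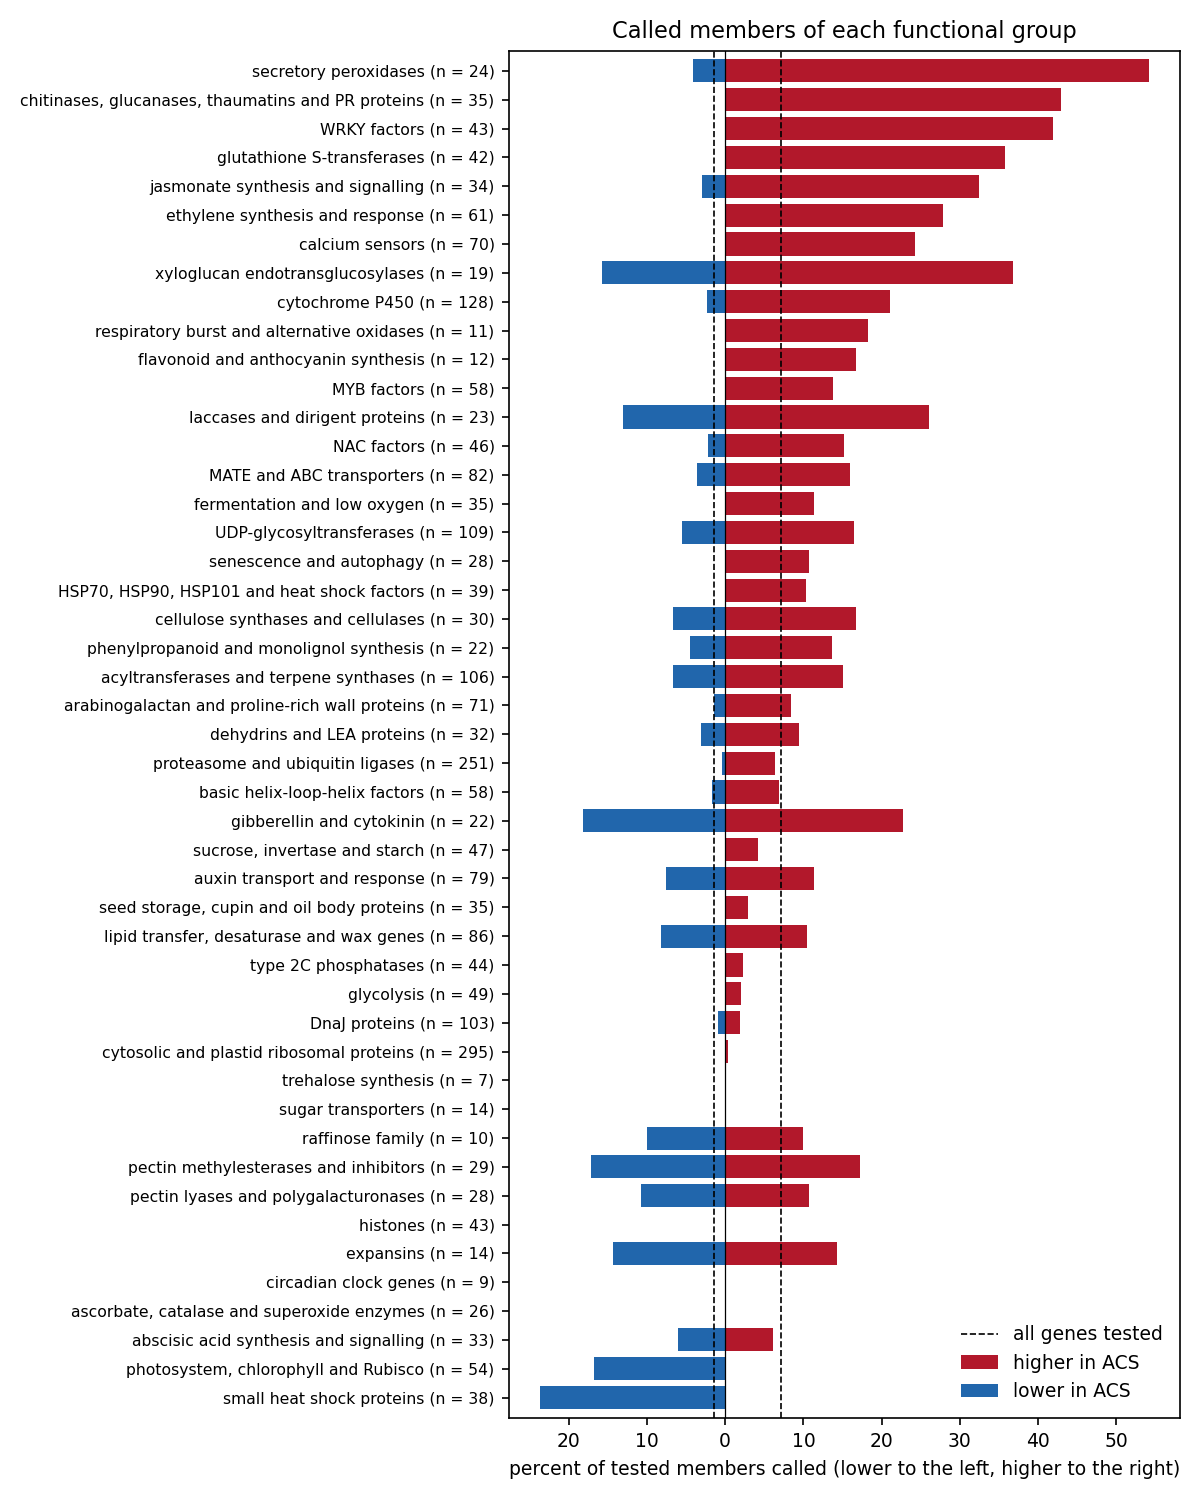
Percent of tested members called higher (red, to the right) or lower (blue, to the left) in ACS for each of the 47 groups, with the number tested in brackets. Dashed lines mark the shares over all tested genes, 7.15% and 1.40%.

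Calcium sensors held several of the largest rises of the whole comparison. These proteins bind calcium through EF-hand loops and pass its signal to other proteins. Of 70 tested members 17 were higher and none lower, with a median log2 fold change of 0.19. Calmodulins and calmodulin-like proteins held 8 rises among 13 tested genes, and genes described as EF-hand family proteins held 8 among 26. FvH4_5g14810, an EF-hand protein, read 0.142, 0.146 and 0.148 RPKM in the harvest libraries and 32.5, 41.5 and 38.0 RPKM after storage. It was nearly silent in every harvest library and well expressed in every stored one, 257-fold apart in mean RPKM (log2 fold change 7.25, SE 0.11, limma adjusted p = 7.18e-07). A further EF-hand gene, FvH4_3g03600, had 3 reads over the harvest libraries together and 2188 over the stored ones, and reached 15.9, 15.4 and 17 RPKM. Calmodulin-like 41, FvH4_2g40400, went from 0.176, 0.0284 and 0.0813 RPKM to 12.4, 17.7 and 13.9 RPKM. FvH4_6g13620, which encodes a calcium-dependent lipid-binding protein with a C2-type domain, had 12 reads at harvest and 4664 after storage (log2 fold change 6.78, SE 0.18, adjusted p = 1.73e-06).

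WRKY factors, a plant family of transcription factors known for controlling defence and stress genes, rose widely. Of 43 tested members 18 were higher and none lower, 35 had a positive fold change, and the median log2 fold change was 0.96 beside 0.01 over all genes. WRKY 40, FvH4_2g41070, was at 0.345, 0.138 and 0.216 RPKM at harvest and at 11.6, 13.2 and 13.8 RPKM after storage. Its log2 fold change was 5.32 (SE 0.22, limma adjusted p = 6.59e-06). WRKY 50, FvH4_2g31400, read 1.6, 0.602 and 0.582 RPKM and then 15.3, 17 and 16.4 RPKM, with AH replicate 1 the highest harvest library. WRKY 33, known in Arabidopsis as a regulator of defence against necrotrophic fungi, was present as a pair of genes that both rose, FvH4_3g39850 from a mean of 6.26 to 36.8 RPKM and FvH4_6g10510 from 7.37 to 31.6 RPKM.

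Other transcription factor families held smaller shares of called genes. NAC factors held 7 rises and 1 fall among 46 tested, MYB factors 8 rises among 58 (3 with a pseudocount of 1 RPKM), and basic helix-loop-helix factors 4 rises and 1 fall among 58, a share of called genes close to that of all tested genes. NAC 42, FvH4_3g11860, rose from 0.804 ± 0.38 to 12.7 ± 0.65 RPKM (SD, n = 3 in each group). MYB 14, FvH4_4g03610, was at 0.231, 0.156 and 0.149 RPKM at harvest and at 4.97, 4.90 and 4.64 RPKM after storage, 27.1-fold higher. NAC 25, FvH4_6g15670, went the other way, from 1.56, 2.11 and 1.85 RPKM to 0.133, 0.245 and 0.289 RPKM.

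Ethylene genes rose at the steps of synthesis and in part among response factors. Of 61 tested members 17 were higher and none lower, and the median log2 fold change was 0.33. ACC synthase makes the direct precursor of ethylene, and 2 of its 3 tested genes rose. FvH4_7g15310 read 1.11, 0.576 and 0.545 RPKM at harvest and 23.6, 24.1 and 24.0 RPKM after storage, with the stored libraries nearly identical (log2 fold change 4.89, SE 0.24, adjusted p = 1.2e-05). FvH4_5g03160 rose from a mean of 0.645 to 11.4 RPKM. The last step is carried out by ACC oxidase, described in the file as ethylene-forming enzyme, and both tested genes rose. FvH4_6g42090, already abundant at harvest with 276, 244 and 216 RPKM, reached 1375, 1418 and 1464 RPKM, and was among the 5 called genes that gained most RPKM. Of 35 tested genes described as Integrase-type DNA-binding proteins 8 rose and none fell. In this set 15 had a negative fold change, and the median log2 fold change was 0.19. The largest rise of the set was in the ERF-type factor FvH4_4g03460. FvH4_4g03460 had no read in the 3 harvest libraries and 345 reads in the stored ones, at 2.66, 2.91 and 3.28 RPKM. Against a floor of 3 reads per library it was at least 44.0-fold higher.

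Jasmonate synthesis genes rose at several steps. Jasmonate is made from linolenic acid through lipoxygenase, allene oxide synthase, allene oxide cyclase and 12-oxophytodienoate reductase (OPR). Of 34 tested members 11 were higher and 1 lower, with a median log2 fold change of 0.61. Among OPR genes 6 of 10 rose, among lipoxygenases 2 of 8, and none of the 3 allene oxide cyclases was called. The 6 jasmonate-zim-domain repressors were also below the limit, with 5 positive fold changes and a median log2 fold change of 0.40. OPR 3, FvH4_1g08454, read 1.25, 0.669 and 0.406 RPKM at harvest and 38.7, 40.1 and 36.7 RPKM after storage (log2 fold change 5.58, SE 0.33, adjusted p = 2.6e-05). Its neighbour FvH4_1g08453 rose from 0.311, 0.172 and 0.0768 RPKM to 12.7, 11.9 and 11.1 RPKM. Allene oxide synthase moved in both directions: FvH4_5g16260 rose from 1.07, 0.614 and 0.399 RPKM to 27.9, 26.3 and 25.2 RPKM, and FvH4_2g07423 fell from 13.2, 14.7 and 12.6 RPKM to 4.17, 4.88 and 5.08 RPKM. That fall lay at the limit of the call, with a log2 fold change of -1.501, and was not called without AH replicate 2 or without ACS replicate 1. A jasmonic acid carboxyl methyltransferase, FvH4_4g32960, which forms the volatile methyl ester, rose from a mean of 7.09 to 137 RPKM. The other tested genes with that description were not called, FvH4_2g39441 at 94.7 and 81.4 RPKM (log2 fold change -0.22, adjusted p = 0.107) and FvH4_2g39450 at 2.34 and 3.17 RPKM.

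The abscisic acid list held 2 rises and 2 falls among 33 tested genes, with a median of -0.07, and 1 of the rises was not called without AH replicate 2 or AH replicate 3. Each direction was 6.06% of the list, beside 7.15% higher and 1.40% lower over all genes. The falls were both in genes described as 9-cis-epoxycarotenoid dioxygenases (NCED), a family whose members cleave carotenoids, some of them to start abscisic acid synthesis. NCED 5, FvH4_3g05440, fell from 184, 223 and 198 RPKM to 55.5, 52.2 and 56.9 RPKM (log2 fold change -1.87, SE 0.10, adjusted p = 1.49e-05). NCED 4, FvH4_4g34690, fell from a mean of 1.24 to 0.166 RPKM, and the second annotation likens it to carotenoid cleavage dioxygenase 4, which is not known as an enzyme of abscisic acid synthesis. NCED 3, FvH4_3g16730, was at 3.58 RPKM at harvest and 9.60 RPKM after storage, below the limit of the call (log2 fold change 1.39, adjusted p = 0.000154). The abscisic acid 8'-hydroxylase FvH4_2g34420, a CYP707A enzyme that breaks the hormone down, also fell, from 2.03 to 0.654 RPKM. FvH4_4g18951, described as PYR1-like 11 after the abscisic acid receptors, rose from 1.02, 0.505 and 0.356 RPKM to 37.4, 35.4 and 35.8 RPKM, but a second description in the file likens it to the major apricot allergen Pru ar 1.

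Gibberellin and cytokinin genes were called often and in both directions, with 5 rises and 4 falls among 22 tested, of which 2 rises and 0 falls were left with a pseudocount of 1 RPKM. Gibberellin 2-oxidases, which inactivate gibberellins, had a positive fold change in 5 of 5 tested genes, and 3 were called. FvH4_4g20730 rose from 0.122, 0.174 and 0.105 RPKM to 3.34, 3.33 and 3.09 RPKM. Cytokinin oxidases, which degrade cytokinins, held 3 falls and 1 rise among 6 tested. Among auxin genes 9 rose and 6 fell of 79, or 11.4% and 7.59%, beside 7.15% and 1.40% of all genes. The GH3 gene FvH4_1g16980, whose family joins auxin or jasmonate to amino acids, had 8 reads at harvest and 1857 after storage. Of 7 tested GH3 genes 3 rose and 1 fell, GH3.9 FvH4_2g25330, from a mean of 1.09 to 0.108 RPKM. A pair of SAUR genes fell, FvH4_2g10860 from a mean of 1.44 to 0.182 RPKM and FvH4_2g38740 from 6.45 to 1.52 RPKM.

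**Figure D3:**
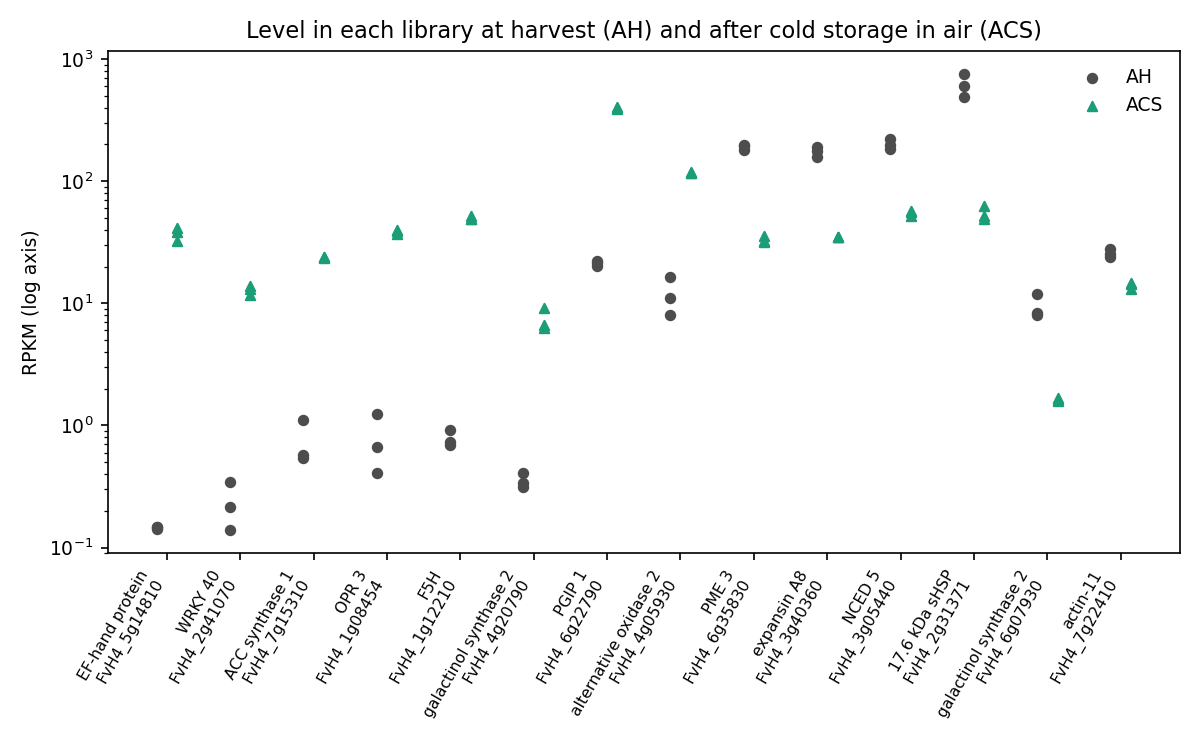
RPKM (log axis) of 14 genes in each of the 3 harvest libraries (AH, grey circles) and the 3 air-cold stored libraries (ACS, green triangles). The groups do not overlap in any of the genes drawn, including actin-11, which was not called. All but actin-11 were chosen among called genes without overlap.

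Secretory peroxidases act in the cell wall on phenolic compounds and reactive oxygen. Of 72 listed genes 24 were tested, and of these 13 rose while 1 fell, with a median log2 fold change of 1.63. FvH4_6g08310, at a mean of 0.0156 RPKM at harvest and 1.99 RPKM after storage, passed the filter through the stored libraries alone. Such a gene could only be a rise. FvH4_3g02700, described as peroxidase 27 in the second annotation, read 0.760, 0.621 and 0.622 RPKM at harvest and 55.9, 57.0 and 62.6 RPKM after storage (log2 fold change 6.26, SE 0.10, adjusted p = 7.18e-07). FvH4_6g10250 was at 4.73, 4.43 and 4.28 RPKM at harvest and at 103, 91.9 and 90.1 RPKM after storage. The most abundant peroxidase called higher, FvH4_2g13110, rose from a mean of 14.9 to 98.1 RPKM. FvH4_6g53690 fell from a mean of 10.5 to 2.32 RPKM. Glutathione S-transferases, which couple glutathione to reactive compounds, held 15 rises and no fall among 42 tested. The tau-class gene FvH4_7g07360 rose from 1.14, 0.784 and 1.02 RPKM to 20.9, 23.2 and 22.7 RPKM.

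The ascorbate, catalase and superoxide list holds enzymes that remove reactive oxygen inside the cell. None of the 26 tested ascorbate, catalase and superoxide genes was called, beside 8.55% of all genes, although 7 were higher and 10 lower at an adjusted p of 0.05 or less with smaller folds. Ascorbate peroxidase 1, FvH4_3g33910, was at 427 RPKM at harvest and 605 RPKM after storage (log2 fold change 0.50, adjusted p = 0.00265), and catalase 2, FvH4_5g25260, at 75.6 and 59.6 RPKM (log2 fold change -0.34, adjusted p = 0.0156). Alternative oxidase, which lets mitochondria pass electrons to oxygen without making ATP at the usual sites, rose in a pair of genes. FvH4_4g05930 read 16.4, 11 and 8.08 RPKM at harvest and 118, 117 and 116 RPKM after storage, and alternative oxidase 1A, FvH4_5g24160, 0.217, 0.238 and 0.322 RPKM and then 1.67, 2.69 and 2.03 RPKM.

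The fermentation list held 4 rises and no fall among 35 tested genes, or 11.4% higher beside 7.15% of all genes. Its main enzymes were not called. The 3 pyruvate decarboxylases and 12 of the 13 alcohol dehydrogenases were not called. Of the alcohol dehydrogenases 11 had a negative fold change, with a median log2 fold change of -0.58. Pyruvate decarboxylase 2, FvH4_6g11100, was abundant at both times, at 968 RPKM and 805 RPKM (log2 fold change -0.27, adjusted p = 0.0334). The rises were in 3 genes described as aldehyde dehydrogenase 2C4 and 1 zinc-binding alcohol dehydrogenase, FvH4_1g16790, which the second annotation likens to cinnamyl alcohol dehydrogenase, an enzyme of lignin monomer synthesis. FvH4_1g05100, the strongest of the aldehyde dehydrogenases, rose from 4.11, 2.58 and 2.48 RPKM to 46.7, 47.5 and 48.8 RPKM.

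Families of wall enzymes held rises and falls side by side. Pectin methylesterases remove methyl groups from pectin, and the list, which also holds their inhibitors, had 5 rises and 5 falls among 29 tested. The 5 genes that rose had harvest means of 0.0443 RPKM (FvH4_5g35580) to 15.6 RPKM (FvH4_2g25960). FvH4_7g11320, pectinesterase 17 in the second annotation, rose from 0.281, 0.208 and 0.198 RPKM to 14.7, 11.2 and 13.3 RPKM (log2 fold change 5.32, SE 0.14, adjusted p = 1.73e-06). FvH4_5g35590 rose from 4.21, 4.8 and 4.23 RPKM to 42.3, 40.8 and 38.6 RPKM. The falls included pectin methylesterase 3, FvH4_6g35830, from 193, 198 and 179 RPKM to 31.9, 32.4 and 35.6 RPKM (log2 fold change -2.51, SE 0.08, adjusted p = 3.27e-06), and FvH4_7g27850, a 21 kDa protein of the inhibitor family, from 1402, 1224 and 1101 RPKM to 364, 366 and 373 RPKM.

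Of 20 tested pectin lyase-like genes, whose family holds enzymes that cut pectin chains, 16 had a negative fold change, 3 fell and 1 rose. FvH4_7g15040 fell from 139, 130 and 118 RPKM to 29.3, 31.3 and 30.4 RPKM (log2 fold change -2.08, SE 0.09, adjusted p = 7.23e-06). Among abundant members short of the limit, FvH4_2g19540 was at 1030 RPKM at harvest and 445 RPKM after storage, and polygalacturonase 2, FvH4_4g34470, at 237 and 95.3 RPKM, with log2 fold changes of -1.21 and -1.31. Polygalacturonase inhibiting proteins, which bind and block fungal polygalacturonases, rose in both tested genes. FvH4_6g22790 read 22.1, 21.5 and 20.3 RPKM at harvest and 394, 390 and 407 RPKM after storage, 18.6-fold higher (log2 fold change 4.21, SE 0.07, adjusted p = 7.18e-07).

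Xyloglucan endotransglucosylases (XTH) cut and rejoin the xyloglucan chains between cellulose fibres, and 7 rose and 3 fell of 19 tested. FvH4_6g38160 rose from 0.141, 0.352 and 0.395 RPKM to 19.3, 19.6 and 20.0 RPKM, and FvH4_5g23180, XTH 30, from 12, 11.1 and 10.6 RPKM to 67.7, 71.1 and 72.5 RPKM. FvH4_4g22090 fell from 68.9, 63.4 and 55.4 RPKM to 12.7, 12.7 and 12.8 RPKM. Among expansins, which loosen walls without cutting them, the 2 called higher were both expansin-like B1 genes and the 2 called lower were expansin A genes. FvH4_5g21120 rose from 12.5, 9.39 and 8.50 RPKM to 111, 97.3 and 94.8 RPKM, and expansin A8, FvH4_3g40360, fell from 189, 177 and 159 RPKM to 34.6, 34.9 and 35.0 RPKM. The most abundant expansin, FvH4_7g25860, was at 2587 RPKM at harvest and 1317 RPKM after storage, which did not reach the limit (log2 fold change -0.97, adjusted p = 0.00021).

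Cellulose synthase-like and cellulase genes held 5 rises and 2 falls among 30 tested. Cellulase 3, FvH4_2g00610, had 8 reads at harvest and 1719 after storage, at 2.36, 2.54 and 2.86 RPKM. Of 4 tested cellulose synthase-like E1 genes 3 rose, among them FvH4_3g42900, which had no read at harvest and was at least 34.2-fold higher against the same floor of 3 reads per library. Endoglucanases of glycosyl hydrolase family 9 had a negative fold change in 7 of 8 tested genes, and FvH4_5g04490 was called, falling from 433, 551 and 513 RPKM to 157, 168 and 173 RPKM.

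**Figure D4:**
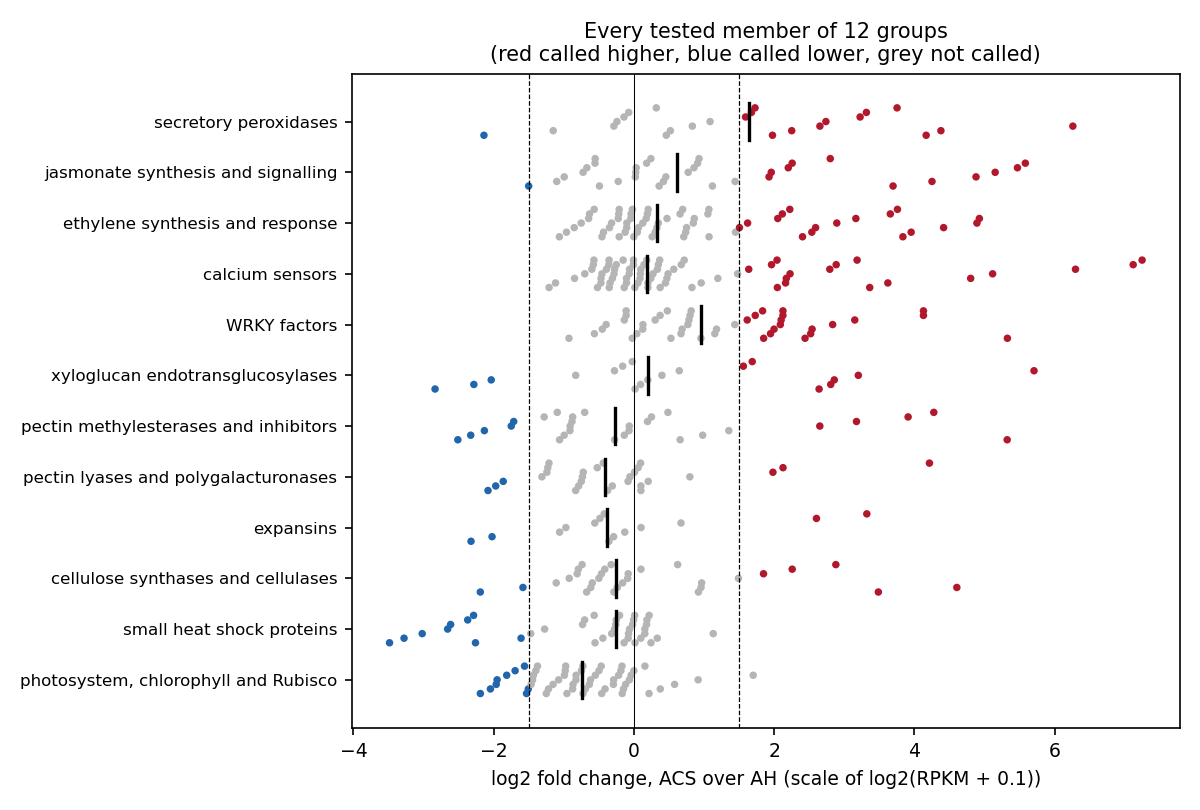
Log2 fold change of ACS over AH for every tested member of 12 groups, 1 point per gene, with the group median as a black bar and the limits of 1.5 dashed. Peroxidases sit to the right with a median of 1.63, photosystem genes to the left with a median of -0.74, and wall enzymes reach past the limit on both sides.

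Phenylpropanoid genes lead from phenylalanine to the monomers of lignin, and of 22 tested 3 rose and 1 fell. These were 13.6% and 4.55%, beside 7.15% and 1.40% of all genes. The median log2 fold change was -0.15, and 10 of the 22 had a positive fold change. The summed level of the list was lower after storage, at 2668 to 3013 RPKM in AH and 1985 to 2129 RPKM in ACS. Ferulic acid 5-hydroxylase (F5H), FvH4_1g12210, which directs the pathway to syringyl units, read 0.696, 0.732 and 0.914 RPKM at harvest and 49.2, 48.6 and 52.3 RPKM after storage, 64.1-fold higher (log2 fold change 5.84, SE 0.11, adjusted p = 9.1e-07). The entry enzyme phenylalanine ammonia-lyase was not called in either tested gene, with FvH4_6g16060 at 115 and 204 RPKM and FvH4_7g19130 at 389 and 306 RPKM. Genes described as O-methyltransferase 1 moved apart, FvH4_5g10440 rising from a mean of 15.7 to 74.5 RPKM and FvH4_7g17810 falling from 10.1 to 2.86 RPKM. Among laccases and dirigent proteins, which couple the monomers, 6 rose and 3 fell of 23. Laccase 7, FvH4_6g12430, had 37 reads at harvest and 1874 after storage, at 2.83, 2.62 and 2.16 RPKM. The 3 falls were all dirigent-like genes, FvH4_2g01680, FvH4_6g43340 and FvH4_6g43350. Of 12 tested flavonoid and anthocyanin genes 2 rose, both low at harvest: a chalcone synthase-like gene, FvH4_2g28040, from a mean of 0.0601 to 3.62 RPKM and flavonol synthase 1, FvH4_2g26440, from 0.461 to 1.53 RPKM. Without AH replicate 2, or with a pseudocount of 1 RPKM, 1 of them was called. Abundant members such as flavanone 3-hydroxylase FvH4_1g11810, at 940 and 978 RPKM, were not called.

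Among defence proteins, 15 of 35 tested chitinases, glucanases, thaumatins and pathogenesis-related (PR) proteins were higher and none lower, with a median log2 fold change of 1.19. Basic chitinase, FvH4_1g10661, which cuts the chitin of fungal walls, was at 8.59, 7.00 and 6.25 RPKM at harvest and at 124 RPKM in each stored library (log2 fold change 4.09, SE 0.12, adjusted p = 2.59e-06). PR 4, FvH4_3g26010, rose from 9.73, 4.40 and 4.12 RPKM to 114, 103 and 104 RPKM, AH replicate 1 again being the highest harvest library. The largest gain in RPKM among called genes was in FvH4_4g19050, an MLP-like protein likened in the second annotation to the allergen Pru ar 1, of a family related to PR 10 proteins. It went from 244, 176 and 172 RPKM to 1943, 1916 and 1897 RPKM, 9.73-fold higher.

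Enzymes of specialized metabolism were called in both directions. Cytochrome P450 genes held 27 rises and 3 falls among 128 tested, and UDP-glycosyltransferases 18 rises and 6 falls among 109. FvH4_3g11580, of the CYP716A family that oxidizes triterpenes, rose from 96.0, 67.0 and 64.1 RPKM to 625, 626 and 633 RPKM, and the CYP78A gene FvH4_5g10880 fell from 24.8, 28.2 and 25.5 RPKM to 3.24, 3.01 and 3.29 RPKM. Terpene synthases held rises and falls. The 4 called terpene synthase 21 genes rose from harvest means below 0.1 RPKM, among them FvH4_5g35711 with 2 reads at harvest and 594 after storage. They passed the filter through the stored libraries alone and could only be rises. The 6 called terpene synthase 14 genes fell. FvH4_3g03061 went from 32.5, 32.2 and 29.5 RPKM to 7.01, 8.31 and 10.9 RPKM, a gene likened to linalool synthase, which makes a floral volatile.

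Among genes known for cold protection, the raffinose family held 1 rise and 1 fall of 10 tested, both in genes described as galactinol synthase 2, the enzyme that starts the raffinose series. FvH4_4g20790 read 0.405, 0.314 and 0.337 RPKM at harvest and 9.08, 6.68 and 6.33 RPKM after storage (log2 fold change 4.03, SE 0.16, adjusted p = 5.29e-06). FvH4_6g07930 did the opposite, from 7.97, 8.32 and 12 RPKM to 1.6, 1.66 and 1.62 RPKM (log2 fold change -2.44, SE 0.16, adjusted p = 4.27e-05). Raffinose synthase FvH4_1g02620 had 19.0, 19.2 and 18.5 RPKM at harvest and 30.8, 32.6 and 32.6 RPKM after storage, which did not overlap but fell short of the limit (log2 fold change 0.76, adjusted p = 0.000246). The list of dehydrins, late embryogenesis abundant (LEA) and cold-regulated proteins held 3 rises and 1 fall of 32. These were 9.38% and 3.12%, beside 7.15% and 1.40% of all genes. The median log2 fold change of the list was -0.36, and 4 members were higher and 11 lower at an adjusted p of 0.05 or less. The only rise of a gene described as LEA was FvH4_3g08950, from a mean of 0.183 to 0.748 RPKM. Of 4 tested genes described as soybean gene regulated by cold-2, 2 rose, FvH4_4g17890 from a mean of 0.706 to 4.27 RPKM and FvH4_4g17880 from 39.2, 27.0 and 24.1 RPKM to 133, 128 and 125 RPKM. The second annotation likens them to an elicitor-responsive protein and a C2 domain protein, not to dehydrins or LEA proteins. The abundant LEA gene FvH4_7g15460 fell from 621, 517 and 508 RPKM to 187, 176 and 179 RPKM.

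The study designed primer pairs for quantitative PCR of several genes above. Those of 4 genes that rose, 1 of sugar metabolism, 1 of lignin and 2 of the cell wall, are printed from 5′ to 3′ so that the exact transcripts meant can be found among near-identical family members.
Galactinol synthase 2 FvH4_4g20790 forward: ggtgaagaaatggtgggagata
Galactinol synthase 2 FvH4_4g20790 reverse: cggtgcacttctctgctgat
F5H FvH4_1g12210 forward: gatgcagctagggctttacg
F5H FvH4_1g12210 reverse: ggcacacgacccttttagtc
Pectinesterase 17 FvH4_7g11320 forward: gtgaccgaggcaataactacc
Pectinesterase 17 FvH4_7g11320 reverse: atgccatctcccatcaacata
Expansin-like B1 FvH4_5g21120 forward: tcagcagcctctgacctcttt
Expansin-like B1 FvH4_5g21120 reverse: cgctcgttggctgaggata

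Small heat shock proteins, chaperones that hold unfolding proteins in solution, only fell among called genes: 9 of 38 tested were lower, beside 1.40% of all genes, and the median was -0.26. The class II gene FvH4_2g31371 read 759, 607 and 492 RPKM at harvest and 63.1, 51.8 and 49.2 RPKM after storage (log2 fold change -3.48, SE 0.18, adjusted p = 1.42e-05). FvH4_7g23650 fell from a mean of 229 to 48.1 RPKM and FvH4_3g38620 from 151 to 28.9 RPKM. Larger chaperones and heat shock factors held 4 rises and no fall of 39, or 10.3% higher beside 7.15% of all genes, with a median log2 fold change of -0.01 and 7 members higher and 7 lower at an adjusted p of 0.05 or less. Heat shock factor B3, FvH4_6g24120, went from 2.47, 1.87 and 1.59 RPKM to 23.5, 22.1 and 24.8 RPKM, and a heat shock protein 70 gene, FvH4_6g41130, from 0.795, 0.943 and 0.907 RPKM to 6.99, 8.38 and 7.72 RPKM. FvH4_6g41500, with no Rosaceae description, lost the most RPKM of the called genes, from 2708, 2125 and 1767 RPKM to 236, 236 and 247 RPKM.

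Photosystem, chlorophyll and Rubisco genes were low in these red fruits and lower after storage. Of 54 tested 9 fell and none rose (1 rose in a fit of all 12 libraries and without ACS replicate 3, and 2 fell with a pseudocount of 1 RPKM), the median log2 fold change was -0.74, and the summed level of the list was 211 to 245 RPKM in AH and 120 to 142 RPKM in ACS. Photosystem II subunit R, FvH4_3g16050, fell from 25.6, 15.6 and 16.5 RPKM to 5.01, 5.14 and 4.10 RPKM. Of 295 tested ribosomal protein genes 1 was called (3 without AH replicate 3), or 0.339%. Actin-11, FvH4_7g22410, which the study used as its reference in quantitative PCR, read 27.9, 25.5 and 24.0 RPKM at harvest and 14.4, 13.2 and 14.6 RPKM after storage (log2 fold change -0.87, SE 0.09, adjusted p = 0.000372). It was below the limit of the call, but every stored library lay under every harvest library.

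The level in fruit kept at 20 °C or stored under CO2 was set beside that of the genes above. Several genes had a level in NCS closer to harvest than to ACS. WRKY 40, FvH4_2g41070, had a mean of 0.277 RPKM in NCS beside 12.9 RPKM in ACS (log2 fold change of ACS over NCS 5.13, SE 0.19, adjusted p = 8.72e-06). The EF-hand gene FvH4_5g14810 was at 0.519 RPKM in NCS beside 37.3 RPKM in ACS, a log2 fold change of 5.92 (adjusted p = 2.08e-06). SAG101, FvH4_6g50162, known in Arabidopsis for roles in senescence and immunity, was at 9.15 RPKM in AH, 9.11 in NCS, 63.1 in ACS and 66.4 RPKM in CCS fruit (log2 fold change of ACS over NCS 2.78). The XTH gene FvH4_4g34630 was at 3.93 RPKM at harvest, 2.14 RPKM in NCS, 29.1 RPKM in ACS and 23.3 RPKM in CCS fruit (3.71), and the CYP78A gene FvH4_5g10880 at 26.2, 18.0, 3.18 and 1.81 RPKM in the same order (-2.46). For each of these 5 genes ACS differed from NCS past the limits of the call, as 3.33% of genes tested in that comparison did (48.0% at an adjusted p of 0.05 or less alone).

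For other genes the means in NCS and ACS differed by less than the limits of the call. ACC synthase 1, FvH4_7g15310, had 24.5 RPKM in NCS and 23.9 in ACS (log2 fold change -0.04, SE 0.04, adjusted p = 0.543), and OPR 3, FvH4_1g08454, 39.0 and 38.5 RPKM (log2 fold change -0.02, SE 0.07, adjusted p = 0.846). The small heat shock gene FvH4_2g31371 was at 44.9 RPKM in NCS and 54.7 in ACS, and actin-11 at 14.3 and 14 RPKM. FvH4_1g02900, an early nodulin-like gene that rose from 2.03, 1.03 and 1.21 RPKM at harvest to 232, 250 and 249 RPKM in ACS, was higher still in NCS, at 368 RPKM (log2 fold change of ACS over NCS -0.59, adjusted p = 0.000452).

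Against CO2-stored fruit, few genes passed the limits, 0.318% of those tested (28.7% at an adjusted p of 0.05 or less alone), and several wall and sugar genes named above were among them. Galactinol synthase 2, pectinesterase 17 and laccase 7 below were quantitative PCR genes of the study. The study took its network genes for correlation with firmness, which differed between ACS and CCS. A difference in such genes was thus partly built into the choice. Galactinol synthase 2, FvH4_4g20790, was at 7.36 RPKM in ACS and 1.19 RPKM in CCS (log2 fold change of ACS over CCS 2.51, adjusted p = 0.000365). Pectinesterase 17, FvH4_7g11320, was at 13.1 and 1.88 RPKM (log2 fold change 2.74, adjusted p = 0.000425), laccase 7, FvH4_6g12430, at 2.54 and 0.456 RPKM (2.24, adjusted p = 0.000329), and allene oxide synthase FvH4_5g16260 at 26.5 and 5.17 RPKM (2.35, adjusted p = 0.000306). WRKY 40 was at 12.9 and 12.1 RPKM, which did not pass (log2 fold change 0.09, adjusted p = 0.466).

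**Figure D5:**
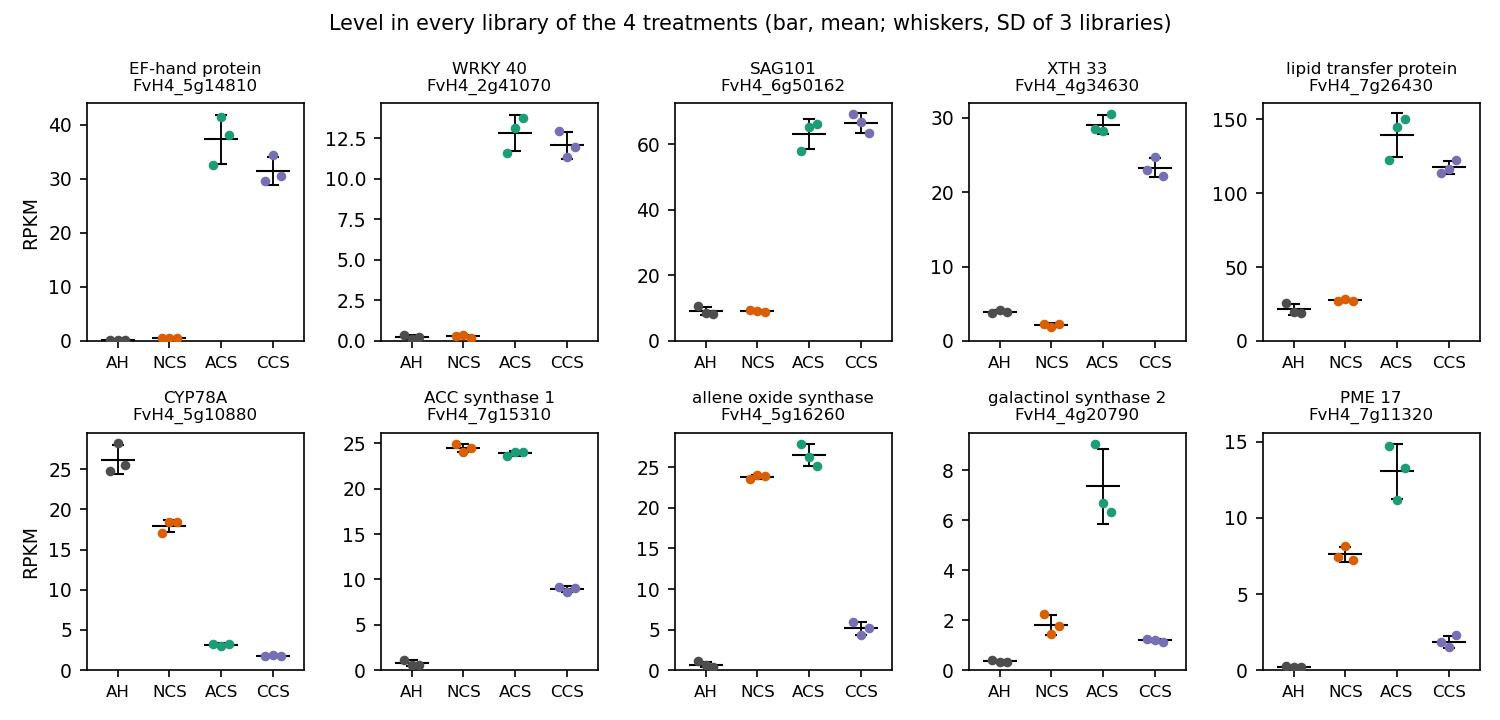
RPKM of 10 genes in each library of AH, NCS, ACS and CCS fruit, with the mean and SD of 3 libraries. In the upper row from the EF-hand gene to the lipid transfer gene, NCS lies near AH and ACS near CCS, and in the lower row ACC synthase 1 is at 24.5 RPKM in NCS and 23.9 RPKM in ACS.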

How the data were processed

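Ripe strawberry RNA was sequenced as paired reads. Per the labels the submitters' processing used CASAVA 1.8, FastQC, cutadapt 1.16.6 and HISAT2 2.1.0. The methods name the Fragaria vesca genome behind the FvH4 identifiers and state that counting in SeqMonk treated the stranded libraries as unstranded, so overlapping and antisense genes, and near-identical family members, can share reads. The deposited values are RPKM made by the authors in 1 table of the series, with gene descriptions. Columns holding the authors' own fold changes were not used.

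Total depth was recovered from the RPKM steps: whole reads came out for 30995 of 30995 genes above 0 (within 0.05 reads, and more loosely for genes with many reads). The median gene length was 2462 bp, and 10 reads on a gene of that length are worth 0.0339 to 0.0596 RPKM in the AH and ACS libraries. Genes reaching 0.5 RPKM in 3 or more of 6 libraries were tested with limma 3.58.1 (R 4.3.3) on log2(RPKM + 0.1), without trend, with Benjamini-Hochberg adjustment over all genes tested. Calls needed an adjusted p of at most 0.05 and an absolute log2 fold change of 1.5 or more. ACS was compared with NCS and CCS in the same way. These comparisons share libraries, so no overlap between them is given. An exact permutation test of 3 against 3 cannot go below 0.1. In simulated data for ACS over AH, 198 of 200 changed genes among 16672 were called and 0 unchanged ones. All planted changes lay past the limit of the call, and the same spread was used for every gene. The outcome was thus nearly fixed by the setting. The real data held many more changed genes than the simulated data, 3648 higher and 3483 lower at an adjusted p of 0.05 or less. The accuracy of the calls in the real data was not tested.

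The members, the functional groups and the smaller families were chosen with earlier results of these data known. Named genes were the 10 largest rises and falls, the 5 largest gains and losses of RPKM, up to 3 rises and 3 falls per group, and the study's quantitative PCR genes. The rises and falls, in all and per group, were picked only among called genes whose AH and ACS libraries did not overlap. Other named genes (WRKY 33, ACC synthase FvH4_5g03160, the methyltransferases FvH4_4g32960 and FvH4_2g39450, NCED 3, ascorbate peroxidase, catalase, pyruvate decarboxylase, ammonia-lyases, peroxidase FvH4_2g13110, flavanone 3-hydroxylase, the further small heat shock genes and the abundant wall genes below the limit) were chosen after their values were seen. The alternatives were other pseudocounts (1 and 0.01), no filter or a filter of 1 RPKM, median-of-ratios scaling, a trend, all 12 libraries, a replicate block, voom on recovered reads and each library left out. Figures were drawn with matplotlib 3.10.9, and tables were made with pandas 2.3.3.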

Additional observations from a re-analysis of the deposited data

How the results depend on the processing

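The counts of called genes, 1426 in all, 1192 higher and 234 lower, stayed within 1.5 times of these values under every alternative except a pseudocount of 1 RPKM, which shrinks the fold change of low genes and gave 778, 681 and 97. The other fits with all 6 libraries or with all 12 gave 1221 to 1634 genes. Leaving out 1 library at a time gave 1414 to 1452 genes, 1187 to 1207 higher and 223 to 253 lower. The share of called genes that were higher ran from 82.05% to 87.53%. Median-of-ratios scaling moved the median log2 fold change of all genes from 0.01 to -0.03, and the genes at an adjusted p of 0.05 or less from 3648 higher and 3483 lower to 3339 higher and 3599 lower. None of the called genes named by the rule changed direction. Direction was not checked for genes that were not called or for those chosen after their values were seen. With a pseudocount of 1 RPKM 52 named genes were no longer called, with scaling 1, and without AH replicate 3 as many as 5. Each functional group gave a count of rises and a count of falls. With a pseudocount of 1 RPKM 30 of these counts moved by more than 1.5 times, or to or from none, and 64 did not. Under each other setting at most 8 moved. Replicate numbers are shared between the groups in the labels, but the deviations of same-numbered libraries correlated at -0.14, 0.04 and -0.50, so the numbers were not taken as pairs, and not every library correlated best with its own number. A fit with the replicate block gave 1421 genes, 1188 higher and 233 lower. Depth limits genes of few reads, and a gene under 0.5 RPKM in more than 3 of the 6 libraries was not tested.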

Other observations

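Several quantitative PCR genes lay outside the groups above or below the filter. FvH4_5g37950, likened to a glucan 1,3-beta-glucosidase, read 0.143, 0.165 and 0.0946 RPKM at harvest and 7.62, 7.36 and 7.42 RPKM after storage, so the groups lay far apart (log2 fold change 5.02, limma adjusted p = 1.43e-06). Fucosyltransferase 1, FvH4_4g30950, which adds fucose to xyloglucan, had 41 reads at harvest and 1348 after storage. FvH4_1g20060, with no Rosaceae description, was abundant in both groups, at 406 RPKM at harvest and 1021 RPKM after storage (log2 fold change 1.33, adjusted p = 3.21e-05), short of the limit. FvH4_4g27370, which the study names GGalPP, and FvH4_3g23310, its mannose-1-phosphate guanylyltransferase, had log2 fold changes of -0.92 and -0.88. The laccase FvH4_6g12410, the pectin lyase-like FvH4_1g00290, the rhamnogalacturonate lyase FvH4_1g19194, the MATE gene FvH4_6g38980 and the peroxidase FvH4_3g40160 did not pass the filter on low values, with means of 0.122 to 0.477 RPKM after storage.

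Membrane and lipid genes also held large changes. Of 82 tested MATE and ABC transporters 13 rose and 3 fell, beside 7.15% and 1.40% of all genes. The ABC transporter FvH4_4g21600 read 5.22, 5.36 and 6.18 RPKM at harvest and 89.8, 91.7 and 72.1 RPKM after storage. Of 86 lipid transfer, desaturase and wax genes 9 rose and 7 fell, or 10.5% and 8.14%. A lipid transfer protein, FvH4_1g30410, fell from 413, 306 and 293 RPKM to 46.4, 45.8 and 49.6 RPKM, and non-specific phospholipase C1, FvH4_3g38460, which cuts membrane phospholipids, rose from 25.5, 29.6 and 28.7 RPKM to 190, 194 and 201 RPKM. Among starch genes, chloroplast beta-amylase FvH4_5g20800, which releases maltose from starch, rose from 2.24, 2.43 and 2.66 RPKM to 13.3, 14.8 and 16.4 RPKM.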
